A study of Homo sapiens with 12 samples.

Results

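The insulin-like growth factor (IGF) system was followed through 10 genes: the binding proteins IGFBP1 to IGFBP7 and the receptors IGF1R, IGF2R and INSR. They were taken by symbol from the 58288 gene IDs of the count table, and all 10 were found. RNA came from HK2 cells, an established human kidney proximal tubule line, in 4 groups of 3 biological replicates. The cells were either short-term cultures of fewer than 30 passages or long-term cultures of more than 120 passages by the labels (the study's methods give a lower limit for long-term cells), and carried either an shRNA against FLCN, the gene mutated in Birt-Hogg-Dube syndrome, or a nontargeting shRNA (the nontarget cells, labelled WT). All 4 groups therefore shared the line, the serum-containing medium and an integrated shRNA. The knockdown cells were stable clones and no source names the clone behind each library, so shRNA and clone effects cannot be told apart. No label says that replicates were separately derived, so p-values measure the spread between these libraries.

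IGF1 and IGF2 act through IGF1R, a receptor tyrosine kinase, while insulin acts through the related INSR, which can also bind IGF2. IGF2R, the cation-independent mannose 6-phosphate receptor, has no kinase: it carries IGF2 and lysosomal enzymes to lysosomes. The IGFBPs are secreted proteins that hold IGFs away from IGF1R or deliver them to it. IGFBP6 prefers IGF2, whereas IGFBP7 binds IGFs only weakly. In the kidney, IGF signalling is known for its part in tubular growth and repair.

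Libraries held 5825779 to 8991051 counts. FLCN had 15.3 ± 2.25 CPM (counts scaled to the same TMM-normalized library size; mean ± SD, n = 3 here and below) in short-term nontarget cells and 6.06 ± 0.469 after short-term knockdown, and 11.3 ± 1.23 against 6.99 ± 0.868 CPM in the long-term cells. Both reductions passed edgeR's quasi-likelihood test (log2 fold changes −1.33 and −0.70, Benjamini-Hochberg adjusted p = 1.12e-04 and 0.00611). Of 12 proximal tubule markers, LRP2, SLC22A6 and HNF4A had no counts in any group, and AQP1 and ANPEP had none in the long-term groups. The list summed to 195.9 to 326.6 CPM over the 12 libraries, while the 6 epithelial markers summed to 2373 to 3745 CPM. The 6 endothelial and leukocyte markers summed to at most 2.46 CPM, with PTPRC and CD3E at 0 counts throughout.

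7 members had enough counts to be tested: IGFBP3, IGFBP4, IGFBP6, IGFBP7, IGF1R, IGF2R and INSR. A gene was called at an adjusted p below 0.05 (edgeR's quasi-likelihood test, Benjamini-Hochberg over 13959 genes, no fold limit). Following short-term FLCN knockdown 2 of the 7 were called, where 10.3% of all tested genes were called. Following long-term knockdown 3 of the 7 were called, against 29.5% of all tested genes. Long culture of the nontarget cells called 2 of the 7 (7.55% of all tested genes), and long culture of the knockdown cells called 5 of the 7 (26.6%). The difference between the long-term and short-term knockdown effects, tested as an interaction, was called for 1 of the 7 (13.4%). In long culture without knockdown the 2 were 1 higher and 1 lower (3.17% and 4.38% of all tested genes). In the 4 pairwise comparisons, in the order given, the 3 libraries of 1 group lay wholly above or below those of the other for 2, 3, 3 and 5 members, against 30.2%, 39.6%, 25.7% and 38.1% of all tested genes. These comparisons share groups, so their counts are not independent.

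**Figure D1:**
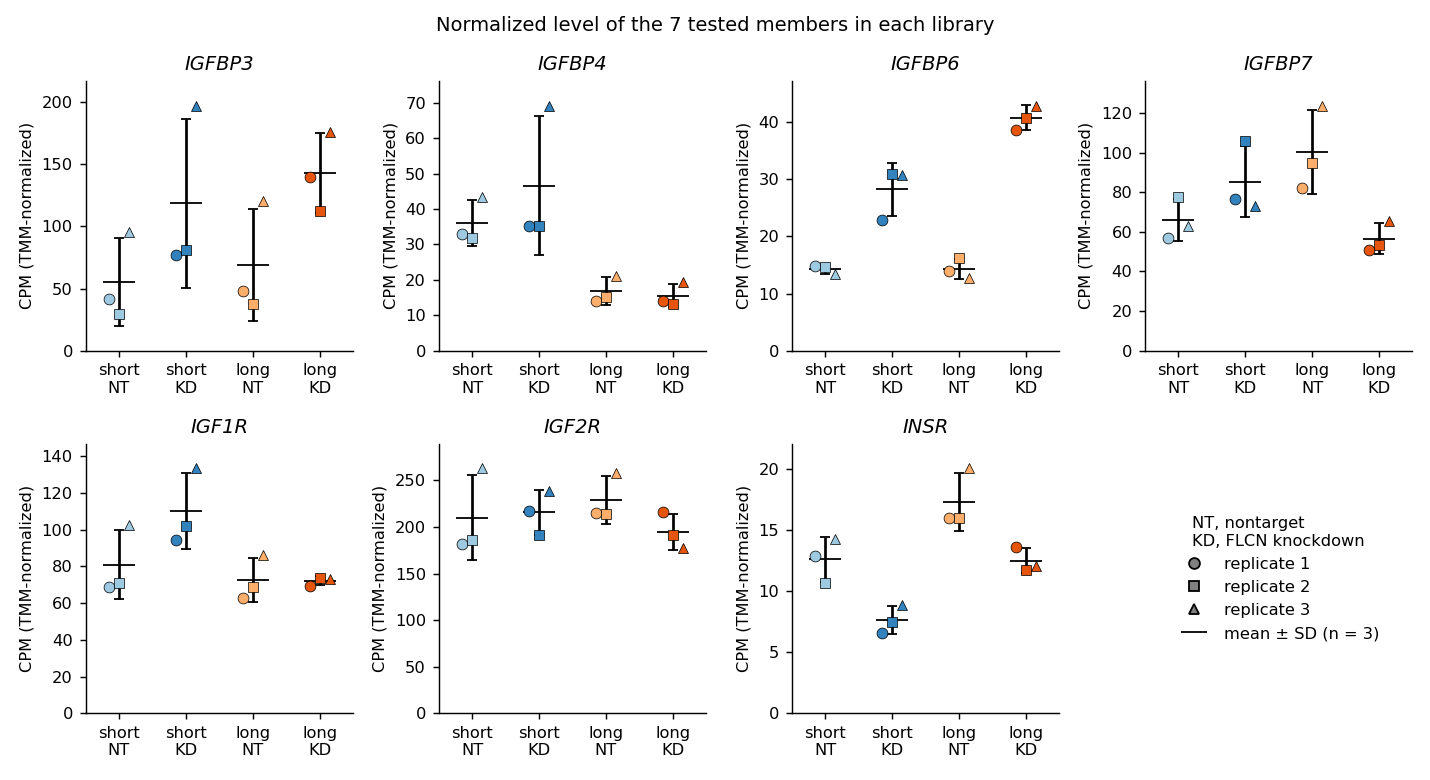
CPM (TMM-normalized) of the 7 tested members in each of the 12 libraries, with 1 panel per gene, every axis starting at 0, symbols for replicates 1 to 3 and black bars for the mean ± SD of 3. IGFBP6 stands above both nontarget groups in all 6 knockdown libraries, and IGFBP7 is lowest on average in the long-term knockdown cells (56.5 CPM).

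The clearest knockdown response among the binding proteins was a rise of IGFBP6 at both culture times. IGFBP6 (chromosome 12) had 14.8, 14.7 and 13.4 CPM in the 3 short-term nontarget libraries and 22.9, 31 and 30.8 CPM after short-term knockdown. In the long-term cells it had 13.9, 16.3 and 12.8 CPM without knockdown and 38.6, 40.8 and 42.9 CPM with it. All 6 knockdown libraries lay above all 6 nontarget libraries, and the long-term knockdown libraries lay above the short-term ones. The rise was 1.97-fold short-term (log2 fold change 0.98, SE 0.148, edgeR adjusted p = 3.32e-04), against 2.85-fold long-term (1.51, SE 0.145, edgeR adjusted p = 4.87e-07). The nontarget cells had the same mean at both times, 14.3 ± 0.804 and 14.3 ± 1.76 CPM (edgeR adjusted p = 1). Long-term knockdown cells exceeded short-term knockdown cells (log2 fold change 0.53, SE 0.137, edgeR adjusted p = 0.00775). That increase lost its call without short-term knockdown replicate 1 (0.40, edgeR adjusted p = 0.0553). The interaction missed the threshold (0.53, SE 0.207, edgeR adjusted p = 0.103).

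The size of the IGFBP6 change placed it near the upper end of the transcriptome, with 4.70% of tested genes changing more in size after short-term and 5.48% after long-term knockdown. The 40 nearest tested genes on chromosome 12 had median log2 fold changes of 0.10 short-term and −0.03 long-term. The stretch below is printed because it holds the single match to a forkhead-type motif (TGTTTAC, either strand) found in the RefSeq promoter windows of the members. It lies on the plus strand at chr12:53097470-53097499 (GRCh38.p14), and the capitals, which are the reverse complement of the motif, begin 186 bases before the RefSeq start of IGFBP6. The motif occurs in 3.42% of the 35116 RefSeq windows, and 231 of the 250 bases before this start lie inside the gene in GENCODE 29.
IGFBP6: caatttgggaaGTAAACAgaaactggaaag

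IGFBP7, a secreted protein found in the extracellular matrix, fell after long-term knockdown, and its response differed between the culture times. It had 57, 77.5 and 63.2 CPM in short-term nontarget libraries and 76.6, 106 and 73.3 CPM after short-term knockdown. In long-term libraries it had 82.0, 94.9 and 123.7 CPM without knockdown and 50.7, 53.4 and 65.3 CPM with it. The short-term groups overlapped, while every long-term knockdown library lay below every long-term nontarget library. The short-term difference did not pass the test (log2 fold change 0.37, SE 0.172, edgeR adjusted p = 0.203). The long-term decrease did (−0.83, SE 0.172, edgeR adjusted p = 0.00146), which is 43.8% lower. The effects differed between the culture times: the interaction was −1.21 (SE 0.243, edgeR adjusted p = 0.00269). It kept its call when any 1 library was left out (adjusted p at most 0.0101). Of the 4 tested fibroblast markers, LUM was higher after long-term knockdown (log2 fold change 3.69) and PDGFRB and ACTA2 were lower (−3.56 and −2.12), while the sum of the list overlapped between these groups (26.3 to 34.2 and 28.1 to 37.5 CPM). Of the 3 tested tubule markers GGT1 was higher (0.85) and PAX8 lower (−0.61), and SLC5A2 did not pass (0.49). Of the 5 tested epithelial markers EPCAM (−0.59) and CDH2 (−0.33) were lower and 3 did not pass. After long-term knockdown 13.7% of all tested genes were called higher and 15.8% lower. The part of these markers in the long-term knockdown results was not tested.

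Culture time alone also moved IGFBP7, upward in nontarget cells (log2 fold change 0.61, SE 0.171; edgeR adjusted p = 0.0385) but downward in knockdown cells (−0.60, SE 0.173, edgeR adjusted p = 0.0166). The rise lost its call without any 1 of 5 libraries (short-term nontarget replicates 1 and 3, long-term nontarget replicates 2 and 3, long-term knockdown replicate 2), with an adjusted p of up to 0.192. The decrease lost its call without short-term knockdown replicate 2 or long-term knockdown replicate 1 or 2, with an adjusted p of up to 0.0967. IGFBP7 (chr4:57030773-57110385, minus strand, GRCh38) overlaps its antisense gene IGFBP7-AS1 and the RNA polymerase II subunit gene POLR2B on the other strand. Whether counting used strand was not stated, so reads of the antisense gene and of IGFBP7 cannot be told apart. IGFBP7-AS1 held 512 counts over 12 libraries against 6442 for IGFBP7, and it fell after long-term knockdown as well (−1.02, SE 0.285, edgeR adjusted p = 0.0109). POLR2B did not pass in any comparison (0.08 after long-term knockdown, edgeR adjusted p = 0.657), and the 40 nearest tested genes had a median of 0.08.

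IGFBP3, the main carrier of IGFs in blood, had higher means with knockdown, but its spread was the widest of the members. Short-term, the libraries had 41.4, 29.2 and 95.5 CPM without and 76.8, 81.4 and 197 CPM with knockdown. Long-term, they had 48.2, 37.8 and 120.7 CPM without and 139.8, 112 and 176 CPM with knockdown. In both comparisons the groups overlapped, because nontarget replicate 3 exceeded at least 1 knockdown library. In the model of all 12 libraries without a replicate block, neither difference passed. Short-term it was 1.09 (SE 0.524, 95% interval −0.05 to 2.24, edgeR adjusted p = 0.239), and long-term 1.04 (SE 0.514, interval −0.08 to 2.17, edgeR adjusted p = 0.157). The intervals include a rise of the size seen for IGFBP6. The biological coefficient of variation fitted for IGFBP3 was 37%, against 10.7% for IGFBP6, and replicate 3 was the highest library in all 4 groups. With the replicate number as a block the long-term difference passed (1.22, edgeR adjusted p = 4.96e-05). There the deviations from the group means of same-numbered libraries correlated at 0.123 to 0.458. Those of nontarget replicate 1 and knockdown replicate 2 correlated at 0.231, so a pairing is not established. The short-term difference passed as well (1.121, edgeR adjusted p = 4.33e-04), although not all of its same-numbered pairs correlated at over 0.1. Without long-term nontarget replicate 3 and without a block, the long-term difference was 1.72 and passed (edgeR adjusted p = 0.0300). It also passed with only the groups compared (1.04, edgeR adjusted p = 0.0349). Over all fits without 1 library it ranged from 0.74 to 1.72 (edgeR adjusted p up to 0.392). The short-term difference ranged from 0.52 to 1.74 and never passed (edgeR adjusted p up to 0.686).

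IGFBP4, which mostly restrains IGF action until it is cut by the protease PAPPA, fell with culture time. Its levels were 32.8, 31.9 and 43.4 CPM in short-term nontarget and 35.3, 35.2 and 69.2 CPM in short-term knockdown libraries. In the long-term cells they were 13.9, 15.2 and 21.2 CPM without and 14.1, 13.2 and 19.3 CPM with knockdown. All 6 long-term libraries lay below all 6 short-term libraries, and knockdown and nontarget groups overlapped at both times. The decrease over culture was 53.2% in nontarget cells (log2 fold change −1.10, SE 0.257, edgeR adjusted p = 0.0150), against 66.6% in knockdown cells (−1.58, SE 0.259, edgeR adjusted p = 2.97e-04). The knockdown differences were 0.36 short-term (edgeR adjusted p = 0.417) and −0.12 long-term (edgeR adjusted p = 0.781). In nontarget cells the call was lost without short-term nontarget replicate 3 or long-term nontarget replicate 1 or 2 (edgeR adjusted p = 0.0662, 0.0656 and 0.0617). The 8 fibroblast markers summed to 53.5 to 60.7 CPM in short-term and 26.3 to 37.5 CPM in long-term libraries. COL1A2, COL3A1, DCN and PDGFRA added little to this sum, with at most 19 counts in any group (COL3A1, long-term knockdown). Of the 4 that could be tested, long culture lowered 1 in nontarget cells (LUM, 23.5 ± 4.01 to 0.960 ± 0.652 CPM), against 4.38% of all tested genes. It lowered 3 in knockdown cells (LUM, PDGFRB and ACTA2), against 15.2% of all tested genes. PDGFRB was 3.99 ± 0.972 and 7.41 ± 2.04 CPM in short-term and long-term nontarget cells. Of the 5 tested epithelial markers, long culture raised 2 and lowered 1 in nontarget cells (KRT19, 32.8 ± 5.67 to 5.07 ± 1.4 CPM). In knockdown cells it raised 1 and lowered 2. Of the 3 tested tubule markers only PAX8 was called, higher in nontarget and lower in knockdown cells. Of all tested genes, 3.17% were higher in nontarget and 11.5% in knockdown cells. The part of these markers in the IGFBP4 result was not tested. In bulk RNA, fewer cells of a type and less RNA per cell cannot be told apart.

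The other 3 binding proteins were at or near the detection limit. IGFBP2 had no counts in any library, and a count of 0 over the 3 libraries of a group allows up to 0.139 to 0.148 CPM. IGFBP1, a binding protein that insulin lowers in liver, had 1 count in the short-term knockdown group, 2 in the long-term knockdown group and none in nontarget cells. For IGFBP5 the short-term nontarget group held 2 counts, the short-term knockdown group 5 and the long-term groups none. These limits cover counting error only. IGFBP1 lies 18.6 kb from the expressed IGFBP3 on chromosome 7, and IGFBP2 lies 7.67 kb from IGFBP5 on chromosome 2.

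**Figure D2:**
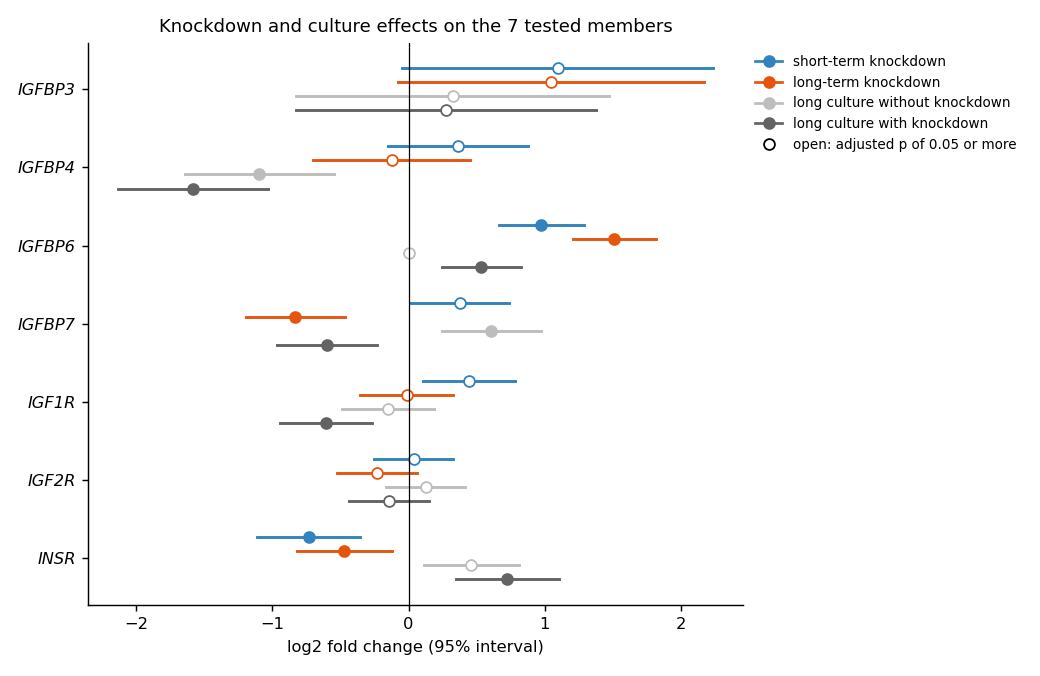
Log2 fold change (x axis) with its 95% interval for the 7 tested members in the 4 pairwise comparisons, where filled points passed an adjusted p below 0.05 and open points did not. IGFBP6 lies right of 0 in both knockdown comparisons and INSR left of 0, IGFBP7 is called in the long-term but not the short-term knockdown comparison, and no interval was computed for IGFBP6 in long culture without knockdown, where the difference was 0 to 4 decimals.

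Among the receptors, INSR fell with knockdown at both times. INSR (chr19:7112255-7294034, minus strand, GRCh38) had 12.9, 10.6 and 14.3 CPM in short-term nontarget libraries and 6.58, 7.46 and 8.85 CPM after short-term knockdown. In long-term cells it had 15.95, 15.95 and 20.05 CPM without and 13.6, 11.7 and 12.04 CPM with knockdown. Within each time the groups did not overlap, and the long-term knockdown libraries lay within the range of the short-term nontarget ones. The decrease was 39.9% short-term (log2 fold change −0.73, SE 0.181, edgeR adjusted p = 0.0136), against 27.8% long-term (−0.47, SE 0.164, edgeR adjusted p = 0.0384). The interaction did not pass (0.26, SE 0.244, 95% interval −0.25 to 0.78, edgeR adjusted p = 0.547).

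INSR was the lowest of the tested members, at 50 to 155 counts per library, and both calls depended on single libraries. The short-term call was lost without short-term nontarget replicate 1 or 3 or short-term knockdown replicate 1 (edgeR adjusted p = 0.0527, 0.0677 and 0.0773). The long-term call was lost without short-term nontarget replicate 1, long-term nontarget replicate 3, or long-term knockdown replicate 2 or 3 (edgeR adjusted p = 0.0519, 0.161, 0.111 and 0.0781), and also with DESeq2 (adjusted p = 0.0693). Long culture raised INSR in knockdown cells (0.73, SE 0.180, edgeR adjusted p = 0.00600). In nontarget cells the difference was 0.46 and did not pass (edgeR adjusted p = 0.107), although those groups did not overlap. The 40 nearest tested genes on chromosome 19 had median log2 fold changes of 0.10 and −0.06 in the short-term and long-term knockdown comparisons.

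IGF1R, the receptor that transmits most IGF signals, fell with long culture of the knockdown cells. It had 69.0, 70.9 and 102 CPM in short-term nontarget and 94.3, 102 and 133 CPM in short-term knockdown libraries. The long-term libraries had 62.9, 68.9 and 86.2 CPM without and 69.3, 73.8 and 73.3 CPM with knockdown. The nontarget and knockdown groups overlapped at both times, while long-term knockdown lay wholly below short-term knockdown. That decrease was 34.3% (log2 fold change −0.61, SE 0.161, edgeR adjusted p = 0.00956). The short-term knockdown difference of 0.44 missed the threshold (SE 0.160, edgeR adjusted p = 0.0950). It passed once short-term nontarget replicate 3 was left out (0.65, edgeR adjusted p = 0.0181). Over all fits without 1 library it ranged from 0.28 to 0.65, with an edgeR adjusted p of up to 0.329. The long-term difference was −0.01 (95% interval −0.35 to 0.33, edgeR adjusted p = 0.969).

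IGF2R had the highest counts of the members and passed the test in no comparison. Its means were 210 ± 45.9 and 215.5 ± 23.8 CPM in short-term nontarget and knockdown cells and 229 ± 25.4 and 194.9 ± 19.5 CPM in the long-term cells. The 95% interval of the knockdown effect was −0.25 to 0.33 short-term (log2 fold change 0.04, edgeR adjusted p = 0.918) and −0.52 to 0.06 long-term (−0.23, edgeR adjusted p = 0.230). Both intervals exclude a 2-fold change in either direction. No unadjusted p reached 0.05 (lowest 0.110, long-term knockdown), and DESeq2 called IGF2R in none of the 5 comparisons.

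The promoters of IGF2R, which did not pass, and of INSR, which fell, are shown side by side, because the transcription factors TFEB and TFE3, which FLCN is known to control, bind elements with CACGTG. They are RefSeq sequences (GRCh38.p14) of the 250 bases before the start: IGF2R at chr6:159968832-159969081 on the plus strand and INSR at chr19:7294415-7294664 on the minus strand, which lies wholly outside the INSR gene of GENCODE 29. Capitals mark CACGTG, which reads the same on both strands.
IGF2R: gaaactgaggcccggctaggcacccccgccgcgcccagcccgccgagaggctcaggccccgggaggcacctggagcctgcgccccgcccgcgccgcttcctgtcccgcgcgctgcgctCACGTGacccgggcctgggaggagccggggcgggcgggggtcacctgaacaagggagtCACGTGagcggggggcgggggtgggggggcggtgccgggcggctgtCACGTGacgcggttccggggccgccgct
INSR: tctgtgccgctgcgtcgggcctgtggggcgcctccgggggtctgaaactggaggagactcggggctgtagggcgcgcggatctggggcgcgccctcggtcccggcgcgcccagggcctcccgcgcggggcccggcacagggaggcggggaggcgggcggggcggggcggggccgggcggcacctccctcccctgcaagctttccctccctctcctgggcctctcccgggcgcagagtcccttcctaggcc

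IGF2R held CACGTG 132, 74 and 28 bases before its start, and INSR held none of the 5 motifs searched. CACGTG occurs in 7.26% of the 35116 windows of 300 bases, and among the 10 windows found for 8 members only that of IGF2R held it. The other motifs searched on both strands, besides the forkhead-type motif above, were the shorter ACGTG, which lies within CACGTG and occurs in 21.4% of windows, and CAAAACA, which occurs in 4.92%. TGANTCA, an AP-1 type motif, occurs in 7.71%. No member window held either of the last pair. The table gave no window for IGFBP1 and IGFBP7.

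To compare members with each other, counts were divided by exon length and scaled to TPM, the share of all transcripts on a scale that sums to the same total in every library. In short-term nontarget cells IGFBP7 was highest at 117 ± 19.7 TPM, followed by IGFBP4 (56.3 ± 10.8), IGFBP3 (41.8 ± 27.3), IGF2R (40.5 ± 9.49), IGFBP6 (36.4 ± 1.61), IGF1R (19.95 ± 4.95) and INSR (4.14 ± 0.633). From IGFBP4 to IGFBP6, each neighbour in this order overlapped the next, and the libraries of IGF1R overlapped those of IGFBP3. IGFBP7 lay above and INSR below every other tested member. In long-term knockdown cells IGFBP3 (101 ± 22.1 TPM), IGFBP6 (98.4 ± 8.46) and IGFBP7 (95.1 ± 14.6) overlapped at the top. Below them IGF2R (35.4 ± 2.65), IGFBP4 (22.9 ± 4.98), IGF1R (16.8 ± 1.30) and INSR (3.87 ± 0.149) followed with no overlap.

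The summed level of the 7 binding proteins overlapped between the groups, while its makeup differed between the long-term groups. The sum was 252 ± 37.0 and 374 ± 80.5 TPM in short-term nontarget and knockdown cells and 307 ± 78.2 and 318 ± 45.4 TPM in long-term cells. The short-term groups overlapped only narrowly, with 217, 248.2 and 290.6 TPM without and 290.4, 380.5 and 451 TPM with knockdown. In long-term nontarget cells IGFBP7 made up 61.2 ± 2.97% of it, IGFBP3 16.7 ± 6.77%, IGFBP6 13.1 ± 3.87% and IGFBP4 8.97 ± 0.153%. In long-term knockdown cells the shares were 29.9 ± 1.34%, 31.7 ± 3.44%, 31.2 ± 3.04% and 7.17 ± 0.520%. None of the 4 shares overlapped between these groups. Short-term all 4 did: IGFBP7 made up 39.3 to 55.8% without and 28.0 to 49.1% with knockdown, and IGFBP6 11.9 to 17.0% and 16.9 to 20.6%. No test was run on the sum or the shares, and a share can move because another member does.

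The ratio of IGF1R to INSR per exon length was highest after short-term knockdown. It was 4.03, 5.00 and 5.37 in short-term nontarget libraries and 10.7, 10.3 and 11.3 with short-term knockdown. In the long-term libraries it was 2.96, 3.24 and 3.22 without knockdown and 3.81, 4.71 and 4.56 with it. The knockdown libraries lay above the nontarget libraries of the same time throughout. No test was run on the ratio.

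**Figure D3:**
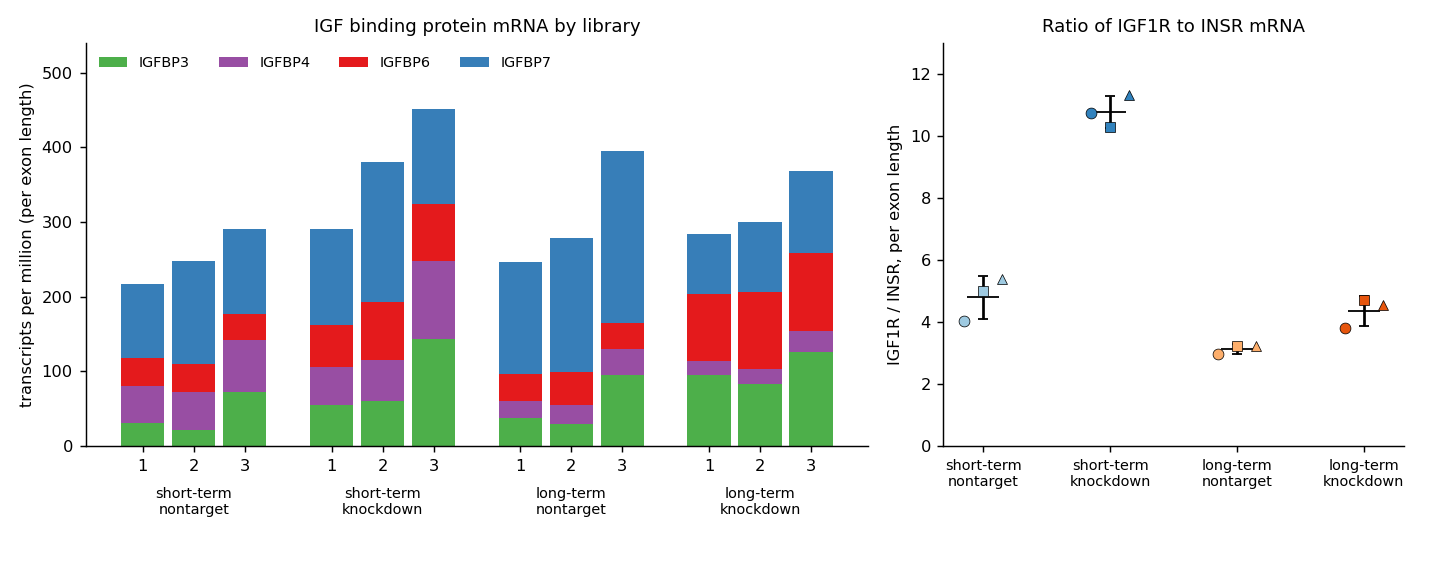
Left, stacked bars of IGFBP3, IGFBP4, IGFBP6 and IGFBP7 in TPM for each library, grouped by condition with replicates 1 to 3. Right, the ratio of IGF1R to INSR per exon length in each library (symbols: circle, square and triangle for replicates 1 to 3) with the mean ± SD of 3, which is 10.8 ± 0.516 after short-term knockdown and at most 4.80 in the other groups.

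Few or no counts were assigned to the ligands. IGF1 and insulin (INS) had no counts in any library, and IGF2 had 5, 3, 2 and 1 counts in the short-term nontarget, short-term knockdown, long-term nontarget and long-term knockdown groups. PIK3R2, a broadly used PI3K subunit, also had 0 counts in all 12 libraries, so a count of 0 in this table does not show that a gene is not transcribed, and gene overlaps at the ligands were not examined. Of 53 further genes of the pathway, 43 were tested. Short-term knockdown called 5 of these higher and 3 lower (all tested genes: 5.62% higher, 4.71% lower), and long-term knockdown 5 higher and 14 lower (13.7% and 15.8%), PCSK5 being 1 of the 14. Their median log2 fold changes were 0.11 and 0.01, where the medians of all tested genes were −6.86e-05 and 9.51e-04. In the interaction 1 was called higher and 10 lower (4.98% and 8.43% of all tested genes).

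Among extracellular proteins related to the IGFBPs or acting on them, IGFBPL1, CCN2, CCN3 and ADAM12 changed. The 4 tested genes of the list of other extracellular proteins all fell after long-term knockdown (15.8% of all tested genes). IGFBPL1, an IGFBP-like secreted protein, had 1.64 ± 0.425 CPM in short-term nontarget and 5.58 ± 1.81 CPM in short-term knockdown cells, against 5.97 ± 1.55 and 0.732 ± 0.606 CPM in long-term cells. It rose short-term (1.75, SE 0.384, edgeR adjusted p = 0.00625) and fell long-term (−3.05, SE 0.436, edgeR adjusted p = 4.02e-05), at 1 to 59 counts per library. Without long-term knockdown replicate 3 the long-term difference was −3.68 and passed. CCN2 and CCN3 are matricellular proteins with an IGFBP-like domain. CCN2 fell from 418 ± 51.6 to 227 ± 50.9 CPM short-term (−0.89, SE 0.137, edgeR adjusted p = 4.01e-04) and from 342 ± 12.2 to 106 ± 12.04 CPM long-term (−1.69, SE 0.141, edgeR adjusted p = 1.09e-07). CCN3 had 27.2 ± 1.26 and 25.1 ± 6.82 CPM short-term, and fell from 12.2 ± 1.15 to 3.13 ± 0.790 CPM long-term (−1.92, SE 0.234, edgeR adjusted p = 7.14e-06).

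ADAM12, a metalloprotease that cuts IGFBP3 and IGFBP5, had 2.68, 1.39 and 0.388 CPM in the nontarget and 30.6, 34.8 and 34.6 CPM in the knockdown libraries of long-term cells (log2 fold change 4.47, SE 0.348, edgeR adjusted p = 7.89e-08). The difference was 5.26 without long-term nontarget replicate 1 and 3.98 to 4.53 without any other of its libraries, and passed each time. Short-term it had 4.33 ± 1.119 and 3.21 ± 1.57 CPM. Of the 5 tested IGFBP proteases and protease inhibitors, ADAM12 was the 1 called higher long-term and 2 were lower, PAPPA and ADAM9. Of all tested genes, 13.7% were called higher and 15.8% lower. PAPPA, the protease of IGFBP4, fell (−0.88, SE 0.238, edgeR adjusted p = 0.00889). The metalloprotease ADAM9 had 13.04 ± 2.04 and 7.70 ± 2.16 CPM (−0.77, SE 0.227, edgeR adjusted p = 0.0156). STC2, an inhibitor of PAPPA, rose short-term (0.96, SE 0.0920, edgeR adjusted p = 3.59e-06). Its long-term difference did not pass (0.08, edgeR adjusted p = 0.549). PAPPA, ADAM9 and STC2 were named after their values were seen.

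Inside the cell, IRS2, an adaptor of INSR and IGF1R, rose at both times. It had 90.1, 95.1 and 100.2 CPM short-term without and 156, 156 and 269 CPM with knockdown, and 98.1, 96.6 and 137 CPM long-term without and 186, 175 and 323 CPM with knockdown. The increases were 1.03 (SE 0.240, edgeR adjusted p = 0.0119) and 1.04 (SE 0.238, edgeR adjusted p = 0.00366). The related adaptor IRS1 fell after long-term knockdown (83.0 ± 14.5 to 49.9 ± 11.4 CPM, −0.74, SE 0.216, edgeR adjusted p = 0.0172) and was named after its value was seen. The short-term call of IRS2 was lost when no filter on low counts was used (adjusted p = 0.0820). PCSK7 and FURIN belong to the proprotein convertases, the family that cleaves the IGF1R and INSR precursors, and both fell long-term, where 15.8% of all tested genes did. PCSK7 fell from 122 ± 14.9 to 50.2 ± 9.61 CPM (−1.29, SE 0.147, edgeR adjusted p = 3.51e-06). FURIN fell by less (−0.73, SE 0.164, edgeR adjusted p = 0.00275), and was named after its value was seen. PCSK5 passed the count filter through the long-term nontarget group alone, which held 39 counts. The long-term knockdown group held 4, and the short-term groups 3 (nontarget) and 1 (knockdown), so its call is not read as a result.

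**Figure D4:**
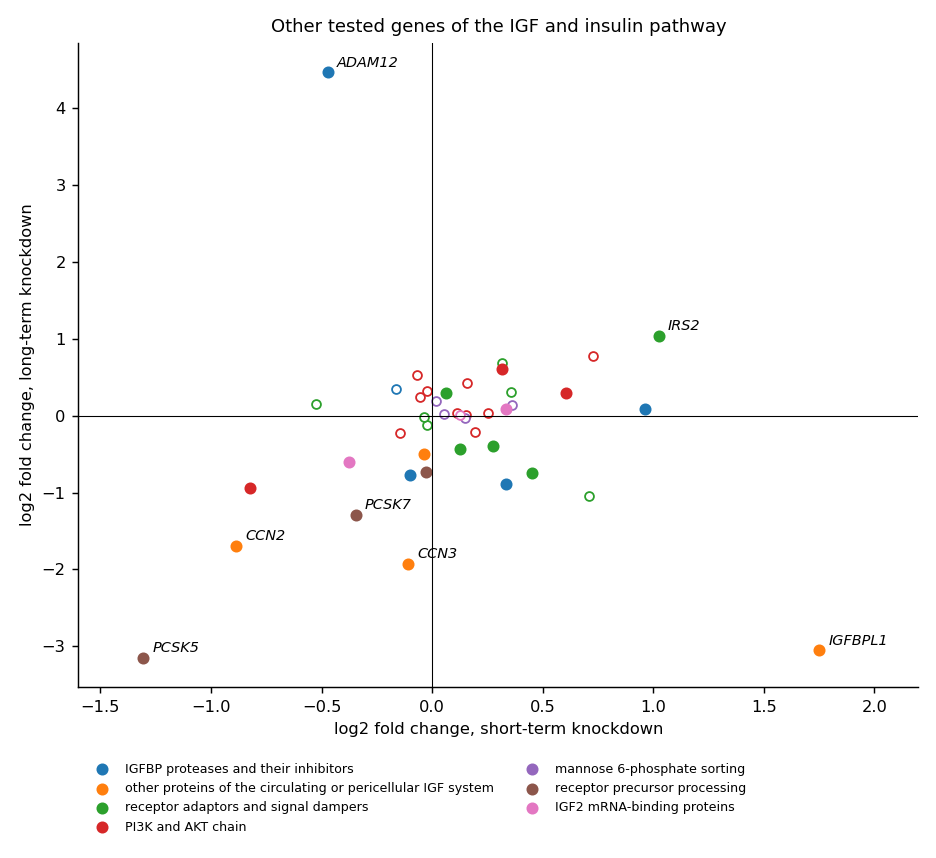
Log2 fold change after short-term (x axis) against long-term FLCN knockdown (y axis) for the 43 tested pathway genes other than the members, coloured by list, with filled points called in at least 1 of the comparisons. IGFBPL1 lies at 1.75 and −3.05 and ADAM12 at −0.47 and 4.47, while IRS2 lies near 1 on both axes.

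Over the 12 libraries, the gene whose log2 CPM correlated most with IGFBP6 was RACK1 (Pearson r = 0.976), followed by NHP2 (0.9749) and BTBD11 (0.974). For INSR these were CELSR2 (0.960), PCDHGC3 (0.954) and ENC1 (0.945), and for IGFBP7 HDAC11 (0.921), AL671277.1 (0.913) and GADD45B (0.909). IGFBP4 was most like PIP4P1 (0.966), PYGB (0.953) and MOV10 (0.952), and IGF1R most like AVPI1 (0.920), ITPR3 (0.919) and STAT3 (0.919). Among the members themselves the highest correlation was between IGFBP4 and IGF1R (0.821) and the lowest between IGFBP4 and INSR (−0.547). These values are a description: the points share libraries and 4 group means, and the genes were picked as the highest of all tested.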

How the data were processed

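The labels name polyA RNA, a TruSeq kit, STAR, featureCounts, DESeq2 and GRCh38. The supplementary methods add MiSeq sequencing and fastp trimming. Versions, annotation and strand setting are not given in the sources used here. The deposited table and per-library files hold raw counts per gene, which differed in 0 values. The authors' normalized columns (unit score) were counts divided by 1 factor per library and were not used for tests.

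IDs were matched to GENCODE 29. R 4.3.3 and edgeR 4.0.16 were used: filterByExpr (13959 genes, 99.8% of counts), TMM, and 1 robust quasi-likelihood model of the 12 libraries with a term per group. Log2 fold changes used a prior count of 0.125. SE is the log2 fold change divided by the square root of F. P-values are two-sided, adjusted by Benjamini-Hochberg over all genes tested. The biological coefficient of variation was 12%, and chi-square per degree of freedom between replicates was 2.15 to 13.0, above counting error. Replicate numbers were taken to pair the libraries of a comparison where the deviations from the group means of all 3 same-numbered pairs correlated at over 0.1, which held for long-term knockdown (0.123 to 0.458) and long culture with knockdown (0.223 to 0.455). Differently numbered pairs also exceeded 0.1 in 5 of 36 cases, among them long-term nontarget replicate 1 with long-term knockdown replicate 2 (0.231). The rule therefore does not show that the libraries were paired. The script was tested on simulated data. TPM used the union of GENCODE exons, whichever isoform was expressed.

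Members and lists were chosen with earlier results of these data known. All members were named, with FLCN, the ligands and pathway genes called after knockdown at a log2 fold change of at least 1 in size. The 3 genes most correlated with each called member and the nearest tested genes (20 on each side) were taken by rule. Alternatives were DESeq2 1.42.0, RLE and upper-quartile factors, no filter, at least 10 CPM on average, the separate library files, a replicate block, only the groups compared, and leaving out each library. Rows for pathway genes and FLCN were added after seeing the data.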

Additional observations from a re-analysis of the deposited data

Results flagged for a closer look

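The 6 named genes below stand out because the effect of knockdown differed between long-term and short-term cells by the interaction test (edgeR, Benjamini-Hochberg adjusted). The differences of the log2 fold changes, long-term minus short-term, were −1.21 for IGFBP7 (adjusted p = 0.00269), 4.95 for ADAM12 (adjusted p = 8.06e-06), −4.80 for IGFBPL1 (adjusted p = 1.88e-05), −0.80 for CCN2 (adjusted p = 0.00919), −1.82 for CCN3 (adjusted p = 3.47e-04) and −0.94 for PCSK7 (adjusted p = 0.00417). Of all tested genes, 13.4% passed the same test. With 3 libraries in each group, no test for a single outlying library was made.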

How the results depend on the processing

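IGFBP6 after short-term and long-term knockdown, IGFBP7 after long-term knockdown and in the interaction, and IGFBP4, IGF1R and INSR in long culture with knockdown passed under every alternative run and without any 1 library. The calls lost without single libraries are given with each gene above. INSR after long-term knockdown also lost its call with DESeq2, with no filter on low counts (adjusted p = 0.0685) and with only the groups compared (adjusted p = 0.0570), where IGFBP3 after long-term knockdown gained one (1.04, adjusted p = 0.0349). A mean of at least 10 CPM left 1 member and 666 genes called in long culture without knockdown (main: 2 and 1054), and IGFBP7 lost its call there (adjusted p = 0.0551). No filter on low counts gave IGF1R a call after short-term knockdown (adjusted p = 0.00989). The causes were not tested. Factors moved the median log2 fold change by at most 0.0291.

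Without 1 library each, members called ranged from 1 to 2 after short-term knockdown, 2 to 3 after long-term knockdown, 0 to 2 in long culture without knockdown, 4 to 5 with knockdown and 1 to 1 in the interaction. No member was called in long culture without knockdown when short-term nontarget replicate 3 or long-term nontarget replicate 2 was left out. Genes called ranged from 874 to 1688, 3295 to 4521, 581 to 1288, 2829 to 3872 and 1463 to 2291 in the same order. The low ends came without short-term nontarget replicate 1 in short-term knockdown (874; 906 without replicate 2) and in long culture without knockdown (581; 645 without replicate 2). Other pathway genes called in long culture without knockdown fell from 7 to 3 without short-term nontarget replicate 1 or long-term nontarget replicate 2, and to 4 without replicate 3 of either group.

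The 25 reversals of sign were all of differences that did not pass. Without 1 library they ranged from −0.060 to 0.23 for IGF2R and −0.028 to 0.53 for IGFBP4 after short-term knockdown, and from −0.30 to 0.078 for IGFBP4 and −0.11 to 0.12 for IGF1R after long-term knockdown. In long culture without knockdown they ranged from −0.10 to 0.070 for IGFBP6, −0.30 to 0.054 for IGF1R and −0.36 to 0.97 for IGFBP3, and in the interaction from −0.69 to 0.62 for IGFBP3. Upper-quartile factors gave 0.00128 for IGF1R after long-term knockdown. For IGFBP6 in long culture without knockdown, DESeq2 gave 6.74e-05, RLE factors 7.54e-04 and no filter 0.00238.

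The replicate numbers met the pairing rule in long-term knockdown and in long culture with knockdown. In these the block changed no call of a member other than IGFBP3 long-term. The rule was not met in comparisons with short-term nontarget libraries, whose 9 same-numbered pairs correlated at −0.10 to 0.11. Over all 18 same-numbered pairs the median was 0.12, against −0.04 for the 36 others. With the replicate number as a block, 4 members and 2359 genes were called after short-term knockdown (main: 2 and 1441), 1786 genes in long culture without knockdown, and 3 members and 2879 genes in the interaction (main: 1 and 1872). The block gave IGFBP3 calls at both times (1.121, adjusted p = 4.33e-04, and 1.22, adjusted p = 4.96e-05), IGF1R one after short-term knockdown (adjusted p = 0.00316) and in the interaction (adjusted p = 0.0324), IGFBP6 one in the interaction (adjusted p = 0.04998) and INSR one in long culture without knockdown (adjusted p = 0.0473). It reversed IGF1R after long-term knockdown (0.00995) and IGFBP3 in the interaction (0.097).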
